A study of Mus musculus with 8 samples.

Results

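Neuropeptide precursors are the secretory proteins from which neurons cut their peptide transmitters. The 10 genes described here were taken by symbol from the deposited expression table of 17644 genes: the opioid precursors Penk and Pdyn, Adcyap1 (the peptide PACAP), Tac1 (substance P and neurokinin A), Sst (somatostatin), Cort (cortistatin), Npy (neuropeptide Y), Vip (vasoactive intestinal peptide), Cck (cholecystokinin) and Crh (corticotropin-releasing hormone). All 10 were found. Expression was measured by CAGE, a method that sequences a short tag at the capped 5' end of each RNA, in brain tissue around a cavity aspirated from the motor cortex of male C57BL/6NCrSlc mice aged 11 weeks. The tissue lay within 1.0 mm of the cavity and was taken at once after the lesion (no delay, 4 samples) or 1 week later (4 samples). All 8 samples had the craniotomy and the aspiration, so the earlier group is freshly injured cortex; no unlesioned tissue was analysed here. The labels name no transgene and do not say whether animals were pooled. Libraries are called A to D within each group; the letter stands for the 6-base tag in the column name, and a letter shared by the groups does not pair the samples. Values of 4 libraries are given in the order A, B, C, D, and means with the SD over the 4 libraries of a group.

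Peptide precursors enter the secretory pathway, are packed into dense-core granules with granins, and are cut at basic residues by prohormone convertases before release. In the cortex most of these genes mark classes of GABA neurons: Sst and Vip define 2 such classes, Npy and Cort are found with Sst in many cells, and Crh and Tac1 label further subsets. Cck is also made by pyramidal neurons and Adcyap1 mainly by excitatory cells, while Penk, Pdyn and Tac1 are abundant in the striatum, which lies below the motor cortex. Many of these genes carry a cyclic AMP response element near the start of transcription and are known as targets of the activity-regulated factor CREB.

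The promoters are shown because that element is what several of the members are known to share. RefSeq (GRCm38.p6) gave start sites for 8 of the 10 members, all but Penk and Crh. Each line gives the 150 bases just upstream of the start, read 5' to 3' on the gene's strand, and capitals mark the core of the cyclic AMP response element, TGACG, or its reverse complement CGTCA, searched on both strands.
Adcyap1, chr17:93198867-93199016, plus strand: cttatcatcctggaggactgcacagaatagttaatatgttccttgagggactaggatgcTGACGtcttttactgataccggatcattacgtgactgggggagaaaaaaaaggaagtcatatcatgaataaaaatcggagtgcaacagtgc
Tac1, chr6:7554911-7555060, plus strand: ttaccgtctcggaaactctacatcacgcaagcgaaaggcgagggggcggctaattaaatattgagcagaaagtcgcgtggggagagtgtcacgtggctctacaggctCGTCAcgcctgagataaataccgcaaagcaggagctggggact
Cort, chr4:149126764-149126913, minus strand: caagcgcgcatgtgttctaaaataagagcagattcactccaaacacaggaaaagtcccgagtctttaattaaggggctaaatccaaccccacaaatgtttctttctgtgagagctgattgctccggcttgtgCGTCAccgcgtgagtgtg
Sst, chr16:23890845-23890994, minus strand: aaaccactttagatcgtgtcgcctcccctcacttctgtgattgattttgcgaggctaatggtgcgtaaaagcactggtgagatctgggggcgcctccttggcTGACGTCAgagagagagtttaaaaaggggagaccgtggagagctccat
Vip, chr10:5639068-5639217, plus strand: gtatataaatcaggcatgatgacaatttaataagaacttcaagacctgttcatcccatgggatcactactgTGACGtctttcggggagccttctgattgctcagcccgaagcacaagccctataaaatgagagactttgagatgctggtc
Cck, chr9:121495695-121495844, minus strand: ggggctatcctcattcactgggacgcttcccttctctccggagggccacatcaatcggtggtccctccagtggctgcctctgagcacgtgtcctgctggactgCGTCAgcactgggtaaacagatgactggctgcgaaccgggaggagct
Npy, chr6:49822560-49822709, plus strand: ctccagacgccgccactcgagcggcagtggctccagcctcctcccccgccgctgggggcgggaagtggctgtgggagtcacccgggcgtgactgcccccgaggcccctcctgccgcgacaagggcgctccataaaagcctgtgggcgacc
The core was present in the 250 bases upstream of a start in 6 of these 8 members (Adcyap1, Tac1, Cort, Sst, Vip and Cck), and it was not found in those windows of Npy or of either start of Pdyn. Of the 32851 promoters of the same length in the RefSeq table, 17.8% held the core. Counted by gene with any start, as for the members, 5347 of 27025 genes held it. The full palindrome TGACGTCA, in which 2 cores overlap, occurred in Sst alone among the members, from position -48 to -41 relative to the start, and in 1.55% of all promoters. In Adcyap1 the core lay at -91 to -87 of the upstream start, and the same letters lie at -242 to -238 of the downstream one. In the other members the core nearest the start lay at -43 to -39 (Tac1), -18 to -14 (Cort), -79 to -75 (Vip) and -47 to -43 (Cck). A match of letters is not evidence of binding, and CREB was not measured.

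The libraries held 8278855 to 13998941 tags assigned to genes, and a level is given as CPM, in which every library is scaled to the same total. CAGE counts 1 tag per transcript end, so levels can be set side by side between genes without correction for length. Every member passed the filter for testing (1 CPM or more in at least 4 libraries), with 35 to 8397 tags per library. Of the markers, the vesicular transporter gene Slc17a7 of cortical excitatory neurons stood at 448 to 598 CPM and Gad1, which makes GABA in cortex and striatum alike, at 214 to 267 CPM; striatal markers were present too and are given below. Of 13 tested pan-neuron genes 6 were lower and 0 higher, whereas all 10 astrocyte and all 10 microglial markers were higher at 1 week. The RNA-binding protein genes Elavl3 and Elavl4 had log2 changes of -0.50 and -0.36 (adjusted p = 0.00253 and 0.00551 in limma, lost in 1 and 2 of 19 alternatives), and the astrocyte genes Gfap and Aqp4 went from 31.4 to 1174 CPM and from 23.8 to 109 CPM. In a bulk sample fewer cells of a type and less RNA per cell cannot be told apart. A further 3-base tag in the column names is the same within each group and differs between the groups, so an effect of that tag cannot be told apart from the effect of time.

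Of the 10 precursors, 5 were lower at 1 week and 0 were higher: Penk, Tac1, Adcyap1, Cort and Sst fell, and Npy, Cck, Vip, Crh and Pdyn were not called (limma on log2(CPM + 1), Benjamini-Hochberg adjusted p under 0.05 over 14718 genes). Over all genes tested, 13.4% were called lower and 23.4% higher. The log2 change below is 1 week over no delay on that scale. Its median was -0.34 over the 10 members and 0.06 over all genes. The members' changes were of unequal size: Penk, Tac1, Adcyap1 and Cort each had a log2 change of -1 or below, which 0.380% of all tested genes (56 genes, these 4 included) reached with a call. Counted from the most negative log2 change of the 14718 genes, Cort ranked 9, Penk 24, Tac1 25 and Adcyap1 51, while Sst ranked 1051. These 4 calls held under all 19 alternatives to the processing that were tried.

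**Figure D1:**
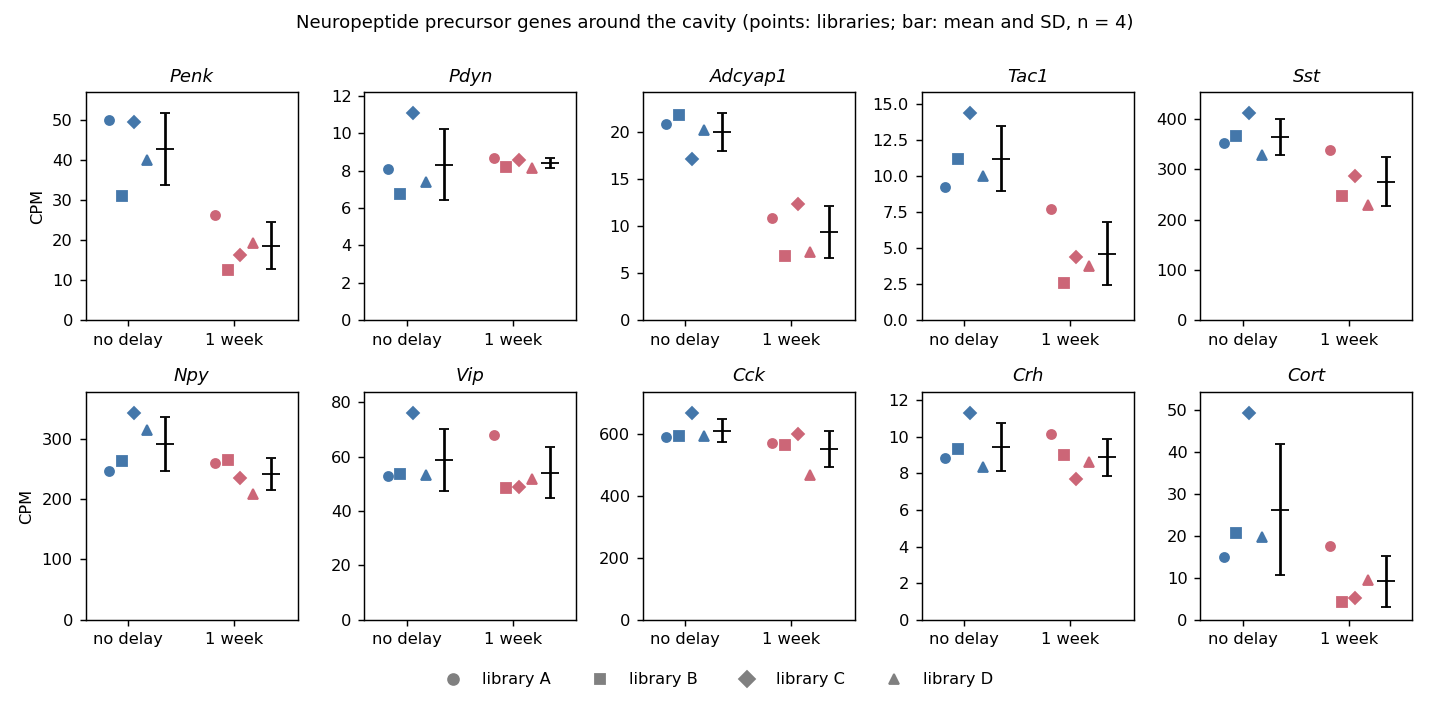
CPM of the 10 precursor genes in the 4 no-delay (blue) and 4 1-week (red) libraries; marker shapes give the library letter, and the bar gives the mean and SD (n = 4). Penk, Adcyap1 and Tac1 show no overlap between the groups, with Penk at 31.1 to 50.1 CPM before and 12.4 to 26.3 CPM at 1 week, and the Cort point lettered C at 49.3 CPM stands above all others of that gene.

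Among the opioid precursors, Penk fell and Pdyn was not called. Penk, the precursor of the enkephalins, stood at 50.1, 31.1, 49.5 and 40.1 CPM in no-delay libraries A to D, and at 26.3, 12.4, 16.3 and 19.3 CPM in 1-week libraries A to D. Every 1-week library lay below every no-delay library. The mean fell by 56.5%, from 42.7 ± 8.99 to 18.6 ± 5.88 CPM, a log2 change of -1.18 (SE 0.20, 95% interval -1.61 to -0.75, adjusted p = 5.8e-04 in limma). Groups that do not overlap, with the 1-week libraries lower, occurred in 12.0% of all tested genes.

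Pdyn, the precursor of the dynorphins, stood at 8.09, 6.77, 11.1 and 7.4 CPM without delay and at 8.70, 8.20, 8.57 and 8.14 CPM at 1 week. The 1-week libraries all fell inside the no-delay range. The log2 change was 0.03 (95% interval -0.27 to 0.33, adjusted p = 0.881 in limma), so the interval allows neither a fall nor a rise as large as that of Penk. Its sign was negative under 7 of the 19 alternatives.

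Tac1, the precursor of substance P, fell from 9.22, 11.2, 14.4 and 10 CPM to 7.73, 2.59, 4.36 and 3.75 CPM. The groups did not overlap, but 1-week library A lay closer to the no-delay range than to the other 1-week libraries. The means were 11.2 ± 2.26 and 4.61 ± 2.21 CPM, with a log2 change of -1.18 (SE 0.23, adjusted p = 0.00167 in limma). At 1 week Tac1 had the lowest mean of the 10 members, whereas Crh and Pdyn lay below it without delay.

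Adcyap1, the precursor of PACAP, a peptide of the VIP and secretin family, also fell. It stood at 20.8, 21.8, 17.1 and 20.1 CPM without delay and at 10.9, 6.80, 12.4 and 7.17 CPM at 1 week. No library of one group reached the other, and the mean fell by 53.4%, from 19.95 ± 2.00 to 9.30 ± 2.75 CPM (log2 change -1.06, SE 0.17, adjusted p = 3.6e-04 in limma). It was the one called member whose no-delay library C was the lowest of its group rather than the highest or near the highest.

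Of the 2 somatostatin-like peptides, Sst is far more abundant than Cort, whose mature peptide resembles somatostatin and binds the same receptors. Sst stood at 352, 366, 412 and 328 CPM without delay and at 339, 247, 287 and 229 CPM at 1 week. 1-week library A overlapped the no-delay range, and the other 1-week libraries lay below it. The mean fell by 24.3%, from 364 ± 35.4 to 276 ± 48.6 CPM (log2 change -0.41, SE 0.11, adjusted p = 0.0124 in limma). The call did not hold when libraries were scaled to the summed CPM of Gad1, Gad2 and Slc32a1 (log2 change -0.37, adjusted p = 0.0598 in limma) or to the pan-neuron list (-0.23, adjusted p = 0.0940 in limma).

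Cort fell too, and its libraries were uneven. It stood at 15.1, 20.8, 49.3 and 19.8 CPM without delay and at 17.5, 4.29, 5.29 and 9.53 CPM at 1 week. The library lettered C was high among the no-delay libraries and the one lettered A was high at 1 week, where it overlapped the no-delay range. The means were 26.2 ± 15.6 and 9.16 ± 6.02 CPM, with a log2 change of -1.45 (SE 0.39, 95% interval -2.30 to -0.61, adjusted p = 0.0111 in limma). Without no-delay library C, where 11.1% of all genes were called lower, the no-delay mean was 18.5 CPM and the log2 change -1.11 (adjusted p = 0.0308 in limma). Without 1-week library A, where 11.6% of all genes were called lower, the 1-week mean was 6.37 CPM and the log2 change -1.80 (adjusted p = 0.00219 in limma). Apitd1, the neighbouring gene (Cenps in RefSeq), was not called, at 6.97 ± 1.26 and 7.29 ± 0.82 CPM (adjusted p = 0.739 in limma). The promoter cores shown above are common to fallen and uncalled members: Adcyap1, Tac1, Cort and Sst hold one and fell, and Vip and Cck hold one and were not called.

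**Figure D2:**
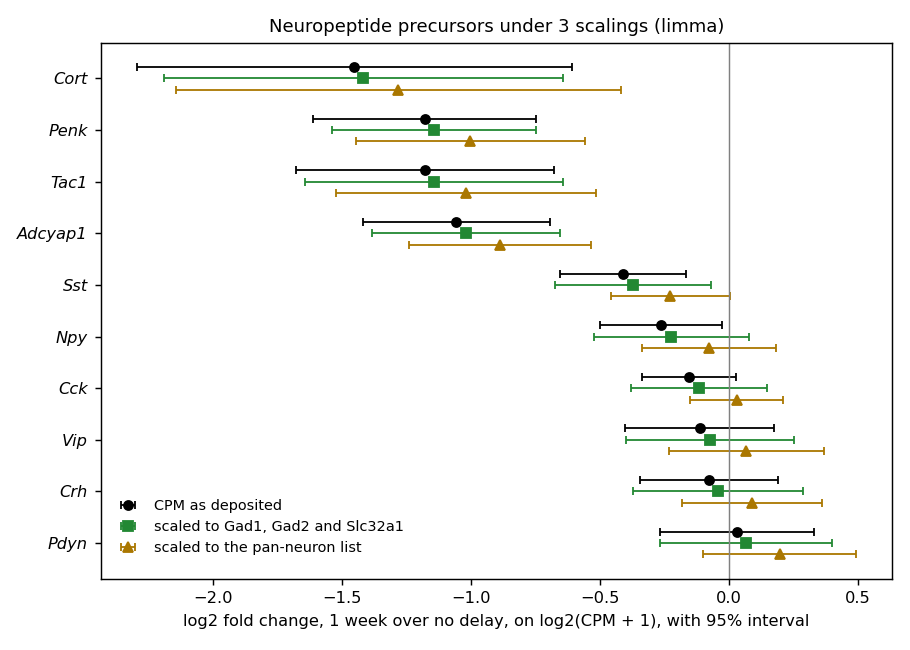
Log2 fold change (1 week over no delay) of each member with its 95% interval, fitted on CPM as deposited (black circles), on CPM scaled to the summed level of Gad1, Gad2 and Slc32a1 (green squares) and on CPM scaled to the pan-neuron list (brown triangles). Cort, Penk, Tac1 and Adcyap1 lie below 0 under each scaling, and the Sst interval reaches 0 under the pan-neuron scaling.

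The 5 remaining members had small differences. Npy, a peptide of Sst and neurogliaform neurons, stood at 246, 263, 343 and 315 CPM without delay and at 259, 265, 235 and 208 CPM at 1 week. Its groups overlapped, and its log2 change of -0.26 (SE 0.11) did not pass the threshold (adjusted p = 0.0762 in limma). It did pass with TMM scaling (adjusted p = 0.0340 in limma), with median-of-ratios scaling (adjusted p = 0.0314 in limma), with edgeR (adjusted p = 0.0380) and DESeq2 (adjusted p = 0.0135), and without no-delay library A (adjusted p = 0.0288 in limma). Of all genes, 17.9% were called lower with TMM, 18.7% with median-of-ratios scaling, 17.5% with edgeR, 18.8% with DESeq2 and 11.9% without no-delay library A. Over all 19 alternatives its adjusted p ranged from 0.0135 to 0.60.

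Cck was the most abundant of the 10 at both times. It stood at 589, 591, 666 and 592 CPM without delay and at 568, 562, 600 and 466 CPM at 1 week, with overlap between the groups. Its log2 change was -0.16 (95% interval -0.34 to 0.03, adjusted p = 0.171 in limma), and it was called lower with median-of-ratios scaling (adjusted p = 0.0477 in limma) and DESeq2 (adjusted p = 0.0294), among adjusted p from 0.0294 to 0.789 over the alternatives.

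Vip stood at 53.0, 53.5, 76.1 and 53.1 CPM without delay and at 67.9, 48.4, 48.7 and 51.8 CPM at 1 week. Each group held 1 high library, lettered C without delay and A at 1 week, and the groups overlapped. The log2 change was -0.11 (95% interval -0.40 to 0.17, adjusted p = 0.529 in limma). Crh stood at 8.81, 9.33, 11.3 and 8.34 CPM and then at 10.2, 9.02, 7.71 and 8.63 CPM, with a log2 change of -0.08 (95% interval -0.35 to 0.19, adjusted p = 0.653 in limma). Crh was called lower with quantile normalization, as were 21.8% of all genes (log2 change -0.37, adjusted p = 0.0256 in limma). For Vip, Cck, Crh and Pdyn the intervals exclude a fall as large as the estimated change of Penk, Tac1, Adcyap1 or Cort.

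The order of the levels was nearly kept. Without delay it ran Cck, Sst, Npy, Vip, Penk, Cort, Adcyap1, Tac1, Crh, Pdyn from the highest mean to the lowest. In that order the ranges of Sst and Npy overlapped, as did those of Penk and Cort, Cort and Adcyap1, Tac1 and Crh, and Crh and Pdyn, so these neighbours were not separated by their spread. At 1 week it ran Cck, Sst, Npy, Vip, Penk, Adcyap1, Cort, Crh, Pdyn, Tac1, and the ranges overlapped for Sst and Npy, Adcyap1 and Cort, Cort and Crh, and Crh and Pdyn, but not for the other neighbours. The summed level of all 10 was 1352 to 1650 CPM without delay and 1011 to 1316 CPM at 1 week, with most of it from Cck, Sst and Npy.

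Single libraries were high in many members at once. No-delay library C held the highest no-delay value of 8 of the 10 members, all but Penk and Adcyap1, with a median deviation of 0.24 (log2) above its group mean. 1-week library A held the highest 1-week value of 7 members, with a median deviation of 0.28. That 1-week library was also the shallowest (8278855 tags) and had the lowest 1-week level of the astrocyte filament gene Gfap, 793 CPM against 1114 to 1437 CPM. The part of these features in the peptide levels was not tested. The share of all genes highest in no-delay library C or in 1-week library A was not counted. A shift of a whole library and a trait of the members cannot be told apart by these counts. Without no-delay library C 5 members were called lower, where 11.1% of all genes were, and without 1-week library A 5 were as well, where 11.6% were.

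**Figure D3:**
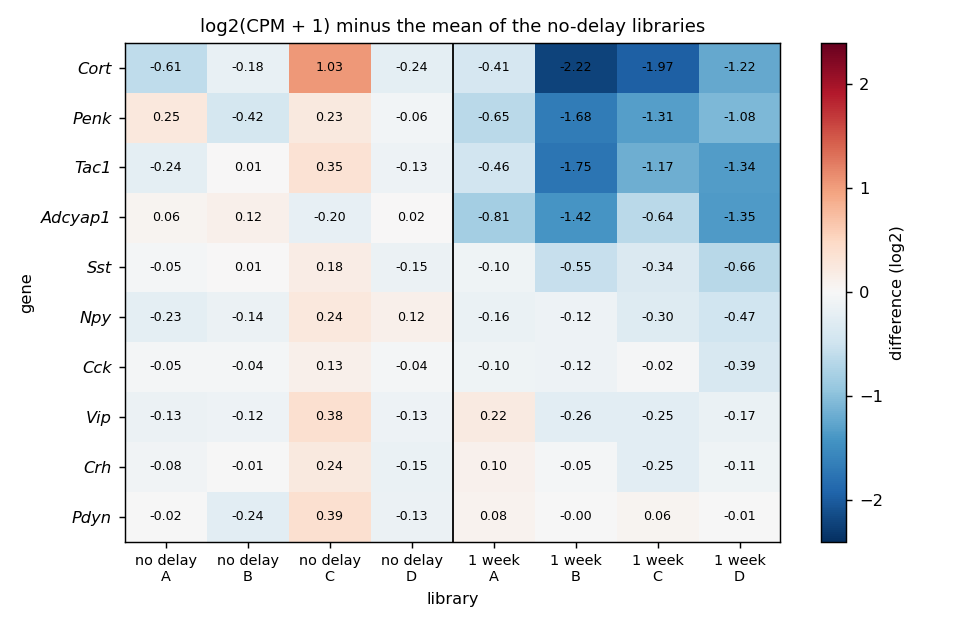
Difference of each member's log2(CPM + 1) in each library from the mean of the no-delay libraries (colour and printed value; rows are genes, columns are libraries). The no-delay column C is raised for most genes, reaching 1.03 for Cort, and the 1-week column A is the least lowered one for Cort, Penk, Tac1 and Sst.

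Since most members mark GABA neurons, the levels were also set against the sum of Gad1, Gad2 and Slc32a1, which make and load GABA. That sum was 330 to 374 CPM without delay and 316 to 372 CPM at 1 week, and none of the 3 genes was called (adjusted p = 0.722, 0.671 and 0.884 in limma). Penk came to 12.2 ± 2.37% of this sum without delay and 5.51 ± 1.95% at 1 week, Adcyap1 to 5.73 ± 0.622% and 2.75 ± 0.830%, and Tac1 to 3.23 ± 0.801% and 1.37 ± 0.732%. For these 3 members the groups did not overlap on this scale either, as for 8.49% of all tested genes with the 1-week libraries lower. Adcyap1 is made mainly by excitatory cells, so its ratio to these GABA neuron genes is not a level per source cell. Sst came to 105 ± 14.9% and 81.9 ± 18.8%, and Cort to 7.65 ± 4.82% and 2.74 ± 1.94%, with overlap in both. With all libraries scaled to this sum, limma called 4 members lower (Penk, Adcyap1, Tac1 and Cort), where 8.57% of all genes were called lower. Scaled to the pan-neuron list, which moves the median change over all genes by 0.17, the same 4 were called, where 4.49% of all genes were.

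Of the 27 tested interneuron genes, 7 were higher, 2 were lower and 18 were not called, with a median log2 change of -0.04. Pvalb, the calcium-binding protein of the fast-spiking class, which is largely separate from the Sst and Vip classes, went from 53.6 ± 12.7 to 94.6 ± 10.1 CPM (adjusted p = 6.8e-04 in limma). The 2 lower genes were the transcription factor genes Npas1 (7.88 to 5.44 CPM, adjusted p = 0.0173 in limma) and Dlx1 (11.9 to 8.88 CPM, adjusted p = 0.0435 in limma). The Dlx1 call was lost in 8 of 19 alternatives and that of Npas1 in 2. Of 19 excitatory neuron genes 3 were higher and 4 lower, with the layer 4 gene Rorb at 75.0 and 109 CPM and the deep-layer gene Fezf2 at 36.0 and 24.1 CPM (adjusted p = 4.2e-04 and 0.00169 in limma). The upper-layer gene Cux2 stood at 50.4 and 63.2 CPM (adjusted p = 0.0252 in limma, lost in 7 of 19 alternatives) and Neurod6, a factor of pyramidal neurons, at 107 and 75.5 CPM (adjusted p = 0.0041 in limma).

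Because the striatum makes Penk, Pdyn and Tac1, its markers were read in the same libraries. Of 14 tested striatal genes 6 were lower, 0 were higher and 8 were not called, with a median log2 change of -0.28, and the summed level of the 17 in the table was 605 to 813 CPM without delay and 571 to 684 CPM at 1 week. Adcy5, a striatal adenylyl cyclase, stood at 45.9 and 31.8 CPM (adjusted p = 0.0101 in limma, lost in 1 of 19 alternatives) and the dopamine D1 receptor gene Drd1a at 15.4 and 9.96 CPM (adjusted p = 0.0308 in limma, lost in 6 of 19 alternatives). The genes that are most restricted to enkephalin-making striatal neurons were near the detection limit: Drd2, the dopamine D2 receptor, stood at 4.30, 0.46, 3.86 and 1.67 CPM without delay and at 1.09, 0.52, 0.07 and 0.16 CPM at 1 week (log2 change -1.17, adjusted p = 0.0249 in limma). Adora2a, an adenosine receptor of the same neurons, stood at 0.09 to 1.68 CPM and 0.64 to 2.05 CPM. Their sum with the receptor gene Gpr6 was 8.09, 0.92, 7.42 and 3.86 CPM without delay and 4.59, 1.92, 1.28 and 1.63 CPM at 1 week, so the libraries high in these markers were lettered A and C without delay and A at 1 week. Within each group Penk was highest in those same libraries. Between the groups, Penk in 1-week library A, at 26.3 CPM, lay below no-delay libraries B and D, at 31.1 and 40.1 CPM.

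Without these 3 libraries, a choice made after seeing the data, the 5 members called with all 8 were called lower, where 7.39% of all genes were, and the log2 change of Penk was -1.12 (adjusted p = 0.00427 in limma). In that fit, which rests on 2 no-delay and 3 1-week libraries, Tac1 had -1.36 (adjusted p = 0.00217 in limma). With the log2 of the summed Drd2, Adora2a and Gpr6 as a covariate, likewise added, Penk had -0.96 (adjusted p = 6.8e-04 in limma), Tac1 -1.07 (adjusted p = 0.00685 in limma) and Cort -1.21 (adjusted p = 0.0384 in limma), and the same 5 members were called, where 11.4% of all genes were. These markers are few and low, and Drd2 was itself called lower at 1 week, so neither fit can separate striatal content from time. The markers were read as those of enkephalin-making striatal neurons, so the fits do not measure other striatal neurons that may make Tac1. A share of Tac1 from such other neurons could not be removed by these fits. Drd1a, at 15.4 CPM without delay and 9.96 CPM at 1 week, was not used in them. The part of striatal tissue in the Penk and Tac1 levels was not tested.

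**Figure D4:**
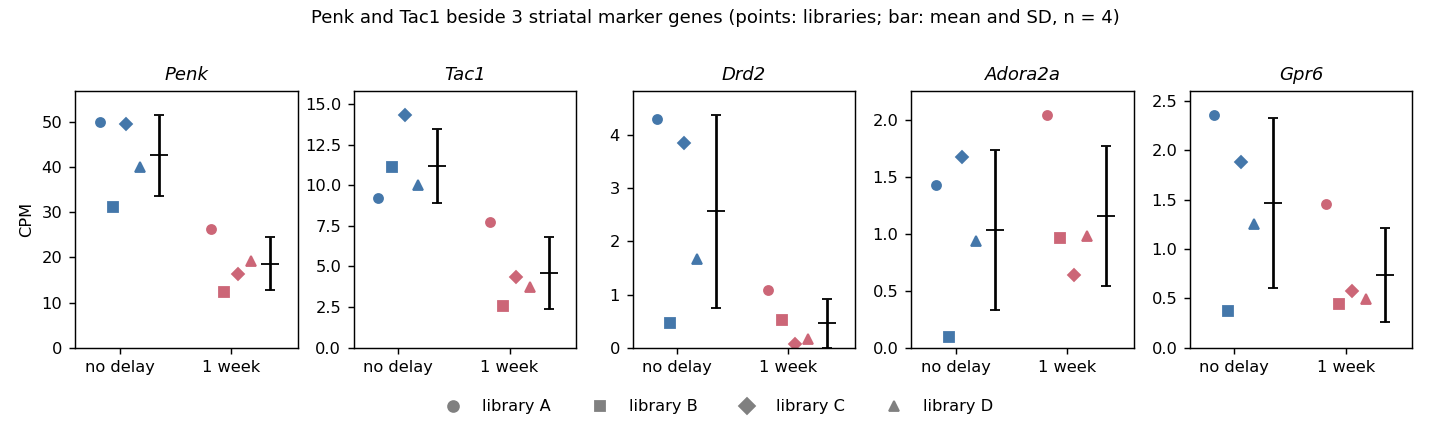
CPM of Penk, Tac1 and the striatal marker genes Drd2, Adora2a and Gpr6 in each library (blue, no delay; red, 1 week; bar, mean and SD, n = 4; marker shapes give the library letter). Drd2 reaches 4.30 CPM in no-delay library A and 0.46 CPM in the one lettered B, and Penk is at 50.1 and 31.1 CPM in these.

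Most receptor genes of these peptides were not called. Of 15 tested receptor and binding-protein genes, 12 were not called, 2 were lower and 1 was higher, with a median log2 change of -0.16; the lower share is near that over all genes. Adcyap1r1, the receptor that is selective for PACAP and is also made by astrocytes, rose from 60.6 ± 6.50 to 85.0 ± 5.74 CPM while its ligand gene fell (log2 change 0.49, SE 0.08, adjusted p = 6.5e-04 in limma). Crhr1, the main receptor of corticotropin-releasing hormone in the cortex, fell from 31.3 ± 2.36 to 17.1 ± 2.34 CPM while Crh was not called (log2 change -0.84, SE 0.11, adjusted p = 6.7e-05 in limma). The delta opioid receptor gene Oprd1, which binds enkephalins, fell from 22.9 ± 1.05 to 17.6 ± 2.60 CPM (log2 change -0.38, adjusted p = 0.0159 in limma). Its call was lost with the pan-neuron scaling (adjusted p = 0.201 in limma).

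The other receptors that are named here were not called. Sstr4, a somatostatin receptor, stood at 56.1 and 47.8 CPM (adjusted p = 0.0618 in limma), Cckbr at 55.3 and 49.6 CPM, Npy1r at 25.9 and 23.6 CPM, Vipr1 at 18.3 and 16.6 CPM and the mu opioid receptor gene Oprm1 at 3.13 and 3.52 CPM. Sstr4 was called lower under 7 of 19 alternatives and Cckbr under 3. Tacr1, the receptor of substance P, was too low to be tested, at 0.46 to 1.68 CPM without delay and 0.52 to 1.07 CPM at 1 week.

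Genes of peptide processing and dense-core granules were also split, with 6 of 18 lower, 3 higher and 9 not called (median log2 change -0.05). Ptprn, a membrane protein of the granules, fell from 441 ± 56.4 to 242 ± 25.8 CPM (adjusted p = 3.2e-05 in limma), and Vgf, a granin-like precursor, from 149 ± 6.29 to 85.7 ± 8.33 CPM (adjusted p = 5.4e-06 in limma). Ctsl, a lysosomal protease that also cuts peptide precursors, went from 87.0 ± 7.44 to 228 ± 39.9 CPM (adjusted p = 1.3e-06 in limma), and the granin gene Chga from 67.6 ± 11.3 to 97 ± 10.6 CPM (adjusted p = 0.00293 in limma). Beside these, the convertase gene Pcsk1 fell from 62.0 to 42.8 CPM (adjusted p = 3.8e-04 in limma) while the convertase gene Pcsk2, at 490 and 470 CPM, was not called (adjusted p = 0.594 in limma); these 2 were picked because they cut the precursors, after their values were known.

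**Figure D5:**
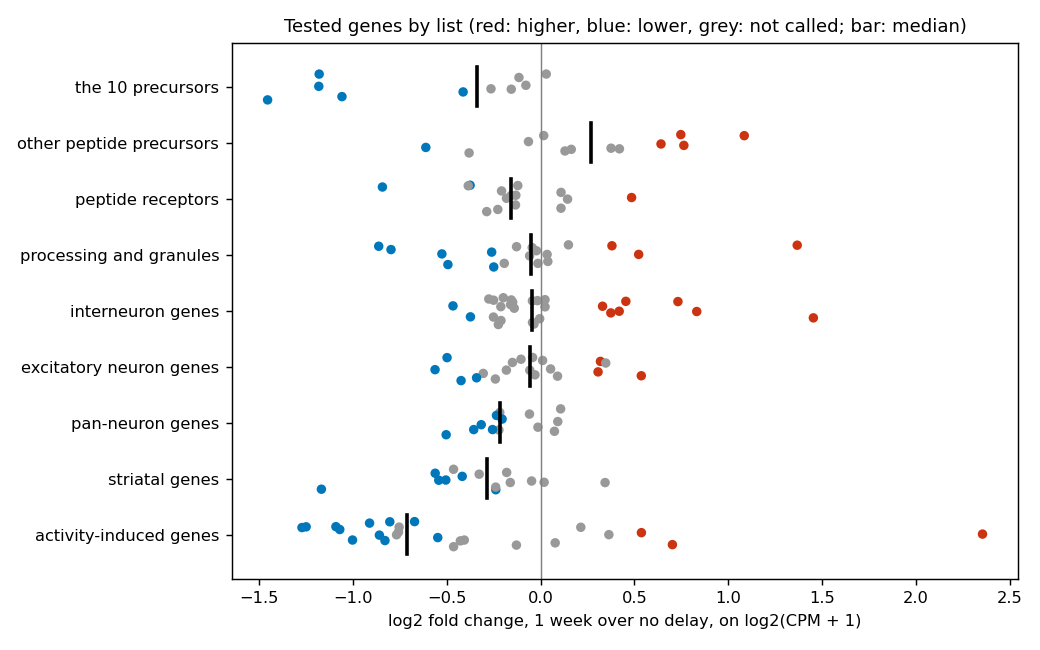
Log2 fold change (1 week over no delay) of each tested gene by list; red points were called higher, blue lower and grey not called, and the bar is the list median. The median lies at -0.34 for the 10 precursors, at 0.27 for the other peptide precursors and at -0.71 for the activity-induced genes.

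Other peptide precursors were read from a wider list. Of 56 further precursor genes 22 were in the table and 12 were tested: 4 were higher, 1 was lower and 7 were not called. Edn1, the vasoconstrictor endothelin 1 of endothelium and astrocytes, rose from 6.16 ± 1.5 to 14.2 ± 2.75 CPM (adjusted p = 2.7e-04 in limma), and Apln, the vascular peptide apelin, from 14.7 ± 1.18 to 26.2 ± 6.07 CPM (adjusted p = 0.00118 in limma). Both are known from vessels more than from neurons. Grp, the gastrin-releasing peptide made by cortical neurons, fell from 17.99 ± 1.34 to 11.6 ± 2.15 CPM without overlap (log2 change -0.61, SE 0.13, adjusted p = 0.00255 in limma).

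Genes that neuronal activity induces, many of them CREB targets, were measured beside the members. Of 24 such genes 11 were lower, 3 were higher and 10 were not called, with a median log2 change of -0.71. Egr4 went from 73.2 ± 15.5 to 31.3 ± 12.6 CPM (adjusted p = 0.00198 in limma) and Sik1, a kinase gene induced by cyclic AMP, from 22.1 ± 3.43 to 9.10 ± 3.80 CPM (adjusted p = 6.0e-04 in limma). In the other direction Atf3, a stress-induced factor of injured neurons and glia, went from 0.375 to 6.09 CPM (adjusted p = 7.4e-07 in limma) and Btg2 from 12.6 to 21.4 CPM (adjusted p = 0.0173 in limma, lost in 1 of 19 alternatives). The part of activity in the peptide levels was not tested.

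The genes whose pattern over the 8 libraries lay nearest to a called member were found among 12321 genes with a mean of 5 CPM or more. The measure was the root mean square difference of log2(CPM + 1) after each gene was centred on its own mean. For Penk the nearest were the activity-induced factor Egr3 (0.19) and Lingo3 (0.22), and Egr3 stood at 169 ± 11.6 and 80.3 ± 19.1 CPM. For Tac1 the nearest were Penk (0.27) and the G protein gene Gng4 (0.27), for Cort they were Tac1 (0.42) and Tnnc1 (0.50), and for Sst they were Nop10 (0.084) and Pcp4 (0.085). For Adcyap1 the nearest were 2 symbols that count the same tags, Gm2694 and C230036H16Rik (0.19). The likeness holds the difference between the groups as well as the spread within them.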

How the data were processed

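CAGE libraries of 8 brain samples were analysed (4 no delay, 4 at 1 week). RNA came from a column-based extraction and reads were single-end, 75 nt long, per the labels' protocols. The submitters' processing notes name BWA 0.5.9 and the build mm9; the rule that gave tags to genes, and any use of strand, are not stated in what was used here. The authors deposited CPM values, each library scaled to one common total, for 17644 gene symbols. Column names give the group and no replicate number. Nothing says that the samples came from separate animals, so a p-value may reflect technical spread only. The reads of all 12 pairs of libraries within a group differed beyond sampling noise: the chi-square of a gene, with 1 degree of freedom, had a mean of 8.36 to 15.9 and a median of 1.19 to 2.63 over genes, where sampling alone gives 1 and 0.455.

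Whole reads were recovered from the CPM steps (100% of values whole within 0.1 reads), giving the library totals; 3 reads, the limit that a count of 0 allows, correspond to 0.214 to 0.362 CPM. Counting intervals cover counting error only. On these reads edgeR 4.0.16 called 5492 genes and DESeq2 1.42.0 called 5561, against 5410 for limma.

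The test was limma 3.58.1 (R 4.3.3, trended variance) on log2(CPM + 1), 2-sided, for 14718 genes with 1 CPM or more in at least 4 libraries, adjusted by Benjamini-Hochberg; fold changes on this scale understate those of low genes. The scripts were tested on simulated data. The members and lists were chosen with earlier results of these data known. Genes were named by rule: all members, and up to 2 called genes in each direction per list with a mean of 2 CPM or more. The rule also took the members' receptors and the 2 genes nearest to each called member. Of the microglial, fibroblast and leukocyte lists only counts are given. Named outside this rule were Drd2, Adora2a, Gpr6, Slc17a7, Gad1, Gad2, Slc32a1, Apitd1, Pcsk1, Pcsk2, Gal and Pmch. A gene that the rule names is not reported here. Of the fibroblast and leukocyte markers, 6 of 10 and 1 of 2 tested were higher. Promoter sequences are from RefSeq (GRCm38.p6), another build than mm9, and were not matched to tag positions.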

Additional observations from a re-analysis of the deposited data

Results flagged for a closer look

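In 5 of the 86 groups of 4 libraries checked, 1 library stood apart from the other three by more than Dixon's 95% limit allows. Chance alone flags about 1 group in 20. Of the members, 3 were marked, all in no-delay library C: Vip at 76.1 CPM against 53.0 to 53.5 CPM, Cck at 666 CPM against 589 to 592 CPM, and Cort at 49.3 CPM against 15.1 to 20.8 CPM. The same library held the highest no-delay value of Cux2, a gene of upper-layer neurons, at 58.4 CPM. No-delay library A held the highest no-delay value of Btg2, 17.5 CPM.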

How the results depend on the processing

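Penk, Adcyap1, Tac1 and Cort were called lower under all 19 alternatives to the processing, and 4 to 7 members were called lower in all (5 to 6 when 1 library was left out). The share of all genes called lower moved too. It was 8.57% (scaling to Gad1, Gad2 and Slc32a1) and 4.49% (pan-neuron scaling) where 4 members were called. Where 7 were called it was 18.7% (median of ratios) and 18.8% (DESeq2). Without no-delay library A, where 6 were called, it was 11.9%. Tests on the members changed side of the threshold in 10 comparisons and kept side and direction in 188, the 2 alternatives added after seeing the data included. Pdyn, not called, turned negative with TMM (-0.025), median of ratios (-0.032), quantiles (-0.28), edgeR (-0.047) and DESeq2 (-0.056), and ranged from -0.051 to 0.16 when 1 library was left out. With the pan-neuron scaling Vip (0.067), Cck (0.029), Crh (0.089), Vipr1 (0.041), Npy1r (0.047) and Cckbr (0.025) turned positive. With 1 library left out Vip ranged from -0.23 to 0.012 and Crh from -0.14 to 0.0030, both positive without no-delay library C. Oprm1 turned negative with quantiles (-0.25) and ranged from -0.037 to 0.24 with 1 library left out. None of these was called where its sign turned. The cause was not tested.

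Over all genes, 1971 were called lower, 3211 with quantiles, 1262 with scaling to Gad1, Gad2 and Slc32a1 and 661 with scaling to the pan-neuron list, which called 6593 higher against 3439. Quantile normalization moved the median log2 change by -0.10. Without the 3 libraries highest in Drd2, Adora2a and Gpr6, 1088 genes were called lower from fewer samples. The share of higher among called genes went from 63.6% to 52.4% with TMM, 50.9% with median of ratios, 43.4% with quantiles, 53.2% with edgeR, 50.3% with DESeq2 and 90.9% with the pan-neuron scaling. No paired analysis was possible because the columns carry no replicate number.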

Other observations

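Of the further peptide precursors in the table, 10 were too low to be tested, and 2 of them are given here because of their values. Galanin (Gal), a peptide that injured neurons are known to make, had 1 read in all without delay and 32 reads in all at 1 week. By library, A to D, these were 0, 0, 1 and 0 reads, and then 2, 7, 19 and 4 reads. The pooled ratio was 26.9, with a 95% counting interval of 4.49 to 1094.5 that covers counting error only, and no level exceeded 1.36 CPM. Pmch, the precursor of melanin-concentrating hormone, went the other way, from 16 reads in 4 of 4 libraries to 2 reads in 2 of 4, a pooled ratio of 0.105 (95% counting interval 0.0117 to 0.447). Neither gene was part of the test, and both were chosen after their values were seen.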
